A study of Mus musculus with 27 samples.

Results

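The 38 genes described here encode the NF-κB transcription factor subunits and the proteins that feed back on NF-κB, JAK-STAT and MAP kinase signalling, and they were followed in cultured mouse microglia given Toll-like receptor (TLR) ligands. They were taken by gene symbol from a list chosen with earlier results of these data known. Shares of members set beside shares of all genes therefore only describe this list. All 38 were found among the 23995 genes of the table and lay among the 14668 that were tested (3 or more libraries at 10 or above). Microglia, the brain's resident macrophages, were shaken off mixed glial cultures grown from the cortex of newborn mice. They were either wild type (strain C57BL/6J) or labelled CB2-/- (strain B6.Cg-Cnr2tm1Zim), a line carrying a targeted allele of Cnr2, the cannabinoid receptor 2 gene, and the allele is not said to be limited to any cell type. Cells of each genotype were left unstimulated or kept for 16 h with LPS (100 ng/ml) together with interferon-γ (20 ng/ml), written LPS/IFN-γ from here on, with CpG (1 nmol/ml) or with PolyI:C. LPS is a ligand of TLR4, CpG a DNA ligand of TLR9, and PolyI:C a mimic of viral double-stranded RNA that TLR3 senses. The 27 libraries comprise 6 of unstimulated wild type and 3 for every one of the 7 further groups. Library numbers were put in 2 series. The first is 3012 to 3023 (wild-type unstimulated replicates 1 to 3 and every stimulated wild-type library). The second joins 2048 to 2059 (every library labelled CB2-/-) and 2186 to 2188 (wild-type unstimulated replicates 4 to 6). No label says that these 2 runs of the second series were 1 batch. The baseline for wild-type responses was replicates 1 to 3, and replicates 4 to 6 were the wild-type side of the comparison between unstimulated genotypes. For stimulated cells the genotype label and the number series are the same split, so what differs between genotypes and what differs between series cannot be told apart. The unstimulated genotypes compared also came from separate runs of numbers, so genotype and run cannot be told apart there either.

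NF-κB subunits wait in the cytoplasm bound to inhibitor of κB (IκB) proteins. TLR signalling degrades these inhibitors, the freed dimers enter the nucleus and bind κB elements, and among their targets are genes of the same pathway. A20 and its partners remove ubiquitin signals, IRAK-M blocks receptor-proximal kinases, SOCS proteins shut down cytokine receptors, RNA-binding nucleases and tristetraprolin shorten the life of inflammatory transcripts, and dual-specificity phosphatases switch off MAP kinases. In macrophages these feedback genes are known as part of the programme that the ligand itself switches on.

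Promoters were searched for 2 kinds of element, the κB consensus and the interferon-activated (GAS) element TTCNNNGAA. Those of 5 members that the results turn on are printed: 4 chosen because they hold a match, and Traf1, with the largest wild-type rises to LPS/IFN-γ and PolyI:C, which holds none. The windows of Dusp2 and Socs1, which also lead results below, hold none either. Each is the 250 bases before a RefSeq start in GRCm38.p6, 5′ to 3′ on the strand of the gene, and capitals mark matches to either element on either strand. Nfkb2 lies at chr19:46304487-46304736 on the plus strand, with 3 κB matches beginning 39, 38 and 11 bases before the start, the first pair of which overlap, and a GAS match at 148. Nfkbia lies at chr12:55492648-55492897 on the minus strand, with a κB match at 29. Tnfaip3 lies at chr10:19015411-19015660 on the minus strand, with κB matches at 125 and 12. Socs3 lies at chr11:117969367-117969616 on the minus strand, with a GAS match at 154. Traf1 lies at chr2:34961773-34962022 on the minus strand. A single window is shown for each gene: Nfkb2 has 3 windows, the other two with 1 κB match each, and Tnfaip3 has 2, the other with no match.
Nfkb2: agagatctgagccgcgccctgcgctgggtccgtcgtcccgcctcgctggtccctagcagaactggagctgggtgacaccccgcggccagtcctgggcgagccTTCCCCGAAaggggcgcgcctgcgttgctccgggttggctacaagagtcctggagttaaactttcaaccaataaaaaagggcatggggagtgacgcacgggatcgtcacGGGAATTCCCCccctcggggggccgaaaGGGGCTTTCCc
Nfkbia: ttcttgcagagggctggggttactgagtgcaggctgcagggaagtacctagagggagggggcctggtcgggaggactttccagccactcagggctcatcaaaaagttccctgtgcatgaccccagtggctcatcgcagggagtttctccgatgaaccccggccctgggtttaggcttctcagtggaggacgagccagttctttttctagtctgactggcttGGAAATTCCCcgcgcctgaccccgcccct
Tnfaip3: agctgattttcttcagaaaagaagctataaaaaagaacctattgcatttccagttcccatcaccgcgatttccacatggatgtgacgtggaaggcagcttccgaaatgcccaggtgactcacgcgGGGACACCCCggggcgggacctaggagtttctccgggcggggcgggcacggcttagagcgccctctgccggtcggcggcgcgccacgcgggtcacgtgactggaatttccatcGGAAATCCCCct
Socs3: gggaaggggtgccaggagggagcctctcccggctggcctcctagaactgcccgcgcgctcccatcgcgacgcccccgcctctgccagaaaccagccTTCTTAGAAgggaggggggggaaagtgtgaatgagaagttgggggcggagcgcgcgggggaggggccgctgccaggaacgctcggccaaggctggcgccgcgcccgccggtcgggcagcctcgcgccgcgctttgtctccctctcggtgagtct
Traf1: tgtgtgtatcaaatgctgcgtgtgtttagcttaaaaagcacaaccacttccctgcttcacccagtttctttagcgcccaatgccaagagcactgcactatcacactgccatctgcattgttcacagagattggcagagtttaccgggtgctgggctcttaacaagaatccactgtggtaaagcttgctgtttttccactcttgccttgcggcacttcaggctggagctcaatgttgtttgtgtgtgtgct

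RefSeq windows were given for 32 of the 38 members, 37 windows in all. The κB consensus matched 11 of these 37 windows (29.7%), belonging to 9 of the 32 genes, against 7.25% of all 32851 windows of the same length. GAS matched 5 of 37 (13.5%), belonging to 5 genes, against 7.02% of all windows. A match describes these letters only and says nothing about binding.

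Summed normalised counts per library ran from 6341299 to 14151982. The highest was PolyI:C replicate 2 labelled CB2-/-, beside 6764330 and 6961811 in replicates 1 and 3. Genes above 0 ran from 13628 to 20643, in wild-type CpG replicates 1 and 3. Replicate 1 stood apart in wild-type CpG (median absolute log2 differences of 0.394 and 0.342, against 0.220 between replicates 2 and 3). It did so too in wild-type PolyI:C (0.302 and 0.319 against 0.131). Microglial markers were present in every group, with sums over 10 genes from 22762 to 83569.5, although Siglech was at 0 in the first-series unstimulated libraries. Markers of other cells moved with the groups. Sums over 8 fibroblast and meningeal genes were 5150.0 to 31625 in wild-type unstimulated replicates 1 to 3, 37882 to 60680.4 in replicates 4 to 6 and 364 to 7910.3 in stimulated wild type. Under the CB2-/- label they were 13551 to 14787 unstimulated, 4326 to 5150.1 with PolyI:C, 685 to 882 with LPS/IFN-γ and 576 to 774 with CpG. Sums over 9 astrocyte genes were 205 to 1077 in wild-type unstimulated replicates 1 to 3, 1600.2 to 2674 in replicates 4 to 6, 50.7 to 1415 in stimulated wild type and 179 to 381 under the CB2-/- label. Over 7 monocyte and neutrophil genes the sums in wild type were 259 to 386 with PolyI:C, 291 to 399 with CpG and 77.5 to 104 with LPS/IFN-γ. In unstimulated wild type and in every group labelled CB2-/- they did not exceed 84.1. What these cells add to the member values was not tested. Cnr2 was not lower under the CB2-/- label: its libraries held 217 to 454, against 172 to 233 in unstimulated and 0 to 22 in stimulated wild type. Genotype is therefore taken from the labels alone, and so is every direction between genotypes below.

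Most members were higher after each stimulus in wild type, and the rises were fewest and smallest at the median with PolyI:C under the CB2-/- label. Responses are log2 fold changes ± SE of log2(normalised count + 1) from limma over all tested genes, called at a Benjamini-Hochberg adjusted p under 0.05, a scale that understates changes of low values. LPS/IFN-γ raised 33 members and lowered 1 in wild type, where 39.7% of all tested genes were called (21.7% higher, 18% lower), and the median member change was 2.14 beside 0.05 for all genes. PolyI:C raised 32 and lowered 1, with 41.1% of all genes called (21.2% higher, 19.9% lower), at a median of 2.15 beside -0.06. CpG raised 27 and lowered 4, with 36.0% called (16.5% higher, 19.6% lower), at a median of 1.29 beside -0.09. In cells labelled CB2-/-, LPS/IFN-γ raised 31 and lowered 2 (23.7% of all genes called, 12.8% higher and 10.9% lower; median 1.60 beside 0.03). CpG raised 28 and lowered 2 (14.3% called, 6.82% higher and 7.44% lower; median 1.47 beside 0.00). PolyI:C under that label raised 21 and lowered 0, with 8.55% of all genes called (5.11% higher, 3.44% lower), at a median of 0.73 beside 0.01. Higher in all 6 responses were 18 members, 27 were higher in the 3 wild-type responses and 20 in the 3 labelled CB2-/-. How many of all tested genes did the same was not counted, so these joint counts only describe the members. Dusp8 and Dusp14 were called in none: their values were 0 to 40.4 and 0 to 15.1 over the 27 libraries. Whether replicates are separate animals or cultures is not in the labels, so the p-values speak only to the spread between libraries. In bulk RNA fewer cells of a type and less RNA per cell cannot be told apart.

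**Figure D1:**
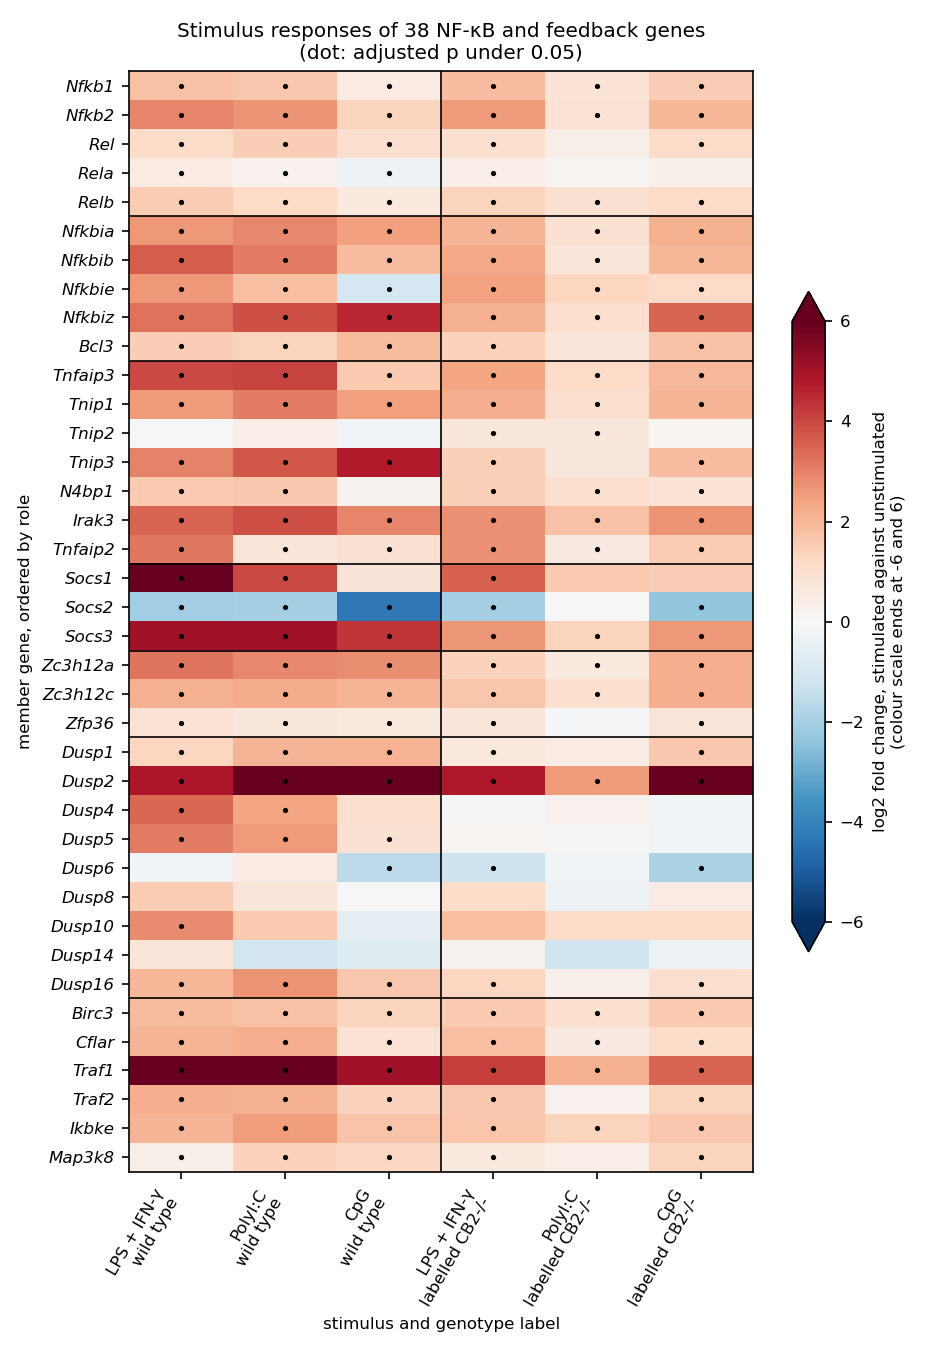
Log2 fold change of each of the 38 members (vertical axis, grouped by role) in the 6 stimulus responses (horizontal axis), wild type on the left and labelled CB2-/- on the right, with colour for size and direction and a mark where the adjusted p was under 0.05. The column for PolyI:C labelled CB2-/- is the palest of the 6, with 21 members called against 32 raised in wild type.

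All 5 NF-κB subunits rose with LPS/IFN-γ and with PolyI:C in wild type, with medians of 1.51 and 1.47. With CpG 4 rose and Rela fell, at a median of 0.59. In wild type Nfkb2 moved most and Rela least. The CB2-/- label gave 5, 3 and 4 rises in the same order of stimuli. Nfkb2, the precursor of the non-canonical pathway subunit, stood at 734, 776 and 691 in unstimulated wild type. With stimulation Nfkb2 stood at 5549, 5425 and 5764 (LPS/IFN-γ), 3841, 5263 and 5453 (PolyI:C) and 1803, 1794 and 1995 (CpG). Nfkb2 in libraries labelled CB2-/- was at 544, 579 and 601 unstimulated, 3462, 3495 and 3214 after LPS/IFN-γ, 1016, 1102 and 1039 after PolyI:C and 2275, 2452 and 2182 after CpG. Stimulated values lay above unstimulated ones in all 6 comparisons without overlap, and PolyI:C gave the lowest values under the CB2-/- label and CpG the lowest in wild type. Its responses were 2.93 ± 0.11, 2.71 ± 0.11 and 1.34 ± 0.11 in wild type (LPS/IFN-γ, PolyI:C and CpG, the order kept below; largest adjusted p = 4.55e-10, limma, BH). They were 2.56 ± 0.11, 0.87 ± 0.11 and 2.00 ± 0.11 under the CB2-/- label (largest adjusted p = 7.54e-06). Nfkb2 was at 519.8, 424 and 442 in wild-type replicates 4 to 6. Nfkb1, precursor of a classical DNA-binding subunit, stood at 1440.0, 1055 and 1166 in unstimulated wild type. With stimulation Nfkb1 stood at 4152, 3961 and 4319 (LPS/IFN-γ), 3579, 3986 and 3633 (PolyI:C) and 1414, 1871 and 1889 (CpG). Nfkb1 in libraries labelled CB2-/- was at 775, 719 and 830.4 unstimulated, 2821, 2848 and 2719 after LPS/IFN-γ, 1301, 1446 and 1427 after PolyI:C and 2249, 2096 and 2083 after CpG. It rose in all 6 responses, by 1.77, 1.62 and 0.50 in wild type and 1.85, 0.84 and 1.47 under the CB2-/- label, although wild-type CpG values overlapped the unstimulated ones. Nfkb1 was at 680.5, 753 and 798 in wild-type replicates 4 to 6. Rel, the c-Rel subunit of lymphoid and myeloid cells, stood at 440.3, 373 and 448 in unstimulated wild type. With stimulation Rel stood at 981, 833 and 894 (LPS/IFN-γ), 1172, 1141 and 1167 (PolyI:C) and 1109, 716 and 783 (CpG). Rel in libraries labelled CB2-/- was at 406, 316 and 282 unstimulated, 666, 636 and 644 after LPS/IFN-γ, 453, 424 and 399 after PolyI:C and 739, 718 and 726 after CpG. Its 5 called responses ranged from 0.97 to 1.47, and PolyI:C under the CB2-/- label gave 0.36 ± 0.14 with overlapping groups (adjusted p = 0.121, limma, BH), which was 0.51 and called without unstimulated replicate 1 of that label. Rel was at 337, 287 and 306 in wild-type replicates 4 to 6.

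Rela, the main transactivating subunit of the classical dimer, stood at 766, 896 and 899 in unstimulated wild type. With stimulation Rela stood at 1131, 1215 and 1259 (LPS/IFN-γ), 941, 1118 and 1038 (PolyI:C) and 692, 669 and 716 (CpG). Rela in libraries labelled CB2-/- was at 633, 763 and 754 unstimulated, 958, 936 and 928 after LPS/IFN-γ, 818, 759 and 730.1 after PolyI:C and 881, 855 and 907 after CpG. Its changes were small: 0.50 ± 0.11, 0.27 ± 0.11 and -0.30 ± 0.11 in wild type, up with the first pair of stimuli and down with CpG, where all 3 CpG libraries lay below all 3 unstimulated ones. The rise with PolyI:C turned to -0.13 after quantile scaling and its call was lost on dropping any of 3 of its 6 libraries, at 0.20 to 0.27, and the call with CpG on dropping any of 4 of its 6 libraries, at -0.30 to -0.26. Only the rise with LPS/IFN-γ passed under the CB2-/- label (0.40 ± 0.11, adjusted p = 0.0066, limma, BH), and it was lost without CB2-/--labelled unstimulated replicate 1, at 0.31. PolyI:C gave 0.11 ± 0.11 and CpG 0.30 ± 0.11 there. Rela was at 701, 554 and 724 in wild-type replicates 4 to 6. Relb, partner of the non-canonical subunit, stood at 309.8, 328 and 328 in unstimulated wild type. With stimulation Relb stood at 908, 879.8 and 978 (LPS/IFN-γ), 698, 761 and 776 (PolyI:C) and 390.5, 538 and 542 (CpG). Relb in libraries labelled CB2-/- was at 195, 292 and 286 unstimulated, 646, 635 and 662 after LPS/IFN-γ, 551, 414 and 473 after PolyI:C and 516, 590.1 and 578 after CpG. It rose in all 6 responses without overlap, by 1.51, 1.21 and 0.59 in wild type and 1.35, 0.91 and 1.14 under the CB2-/- label. Relb was at 241, 211 and 306 in wild-type replicates 4 to 6.

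The 5 IκB family genes had higher medians than the subunits: 2.60, 2.89 and 1.88 in wild type and 2.15, 0.91 and 1.97 under the CB2-/- label. All 5 rose with LPS/IFN-γ under both labels. Nfkbie went against the rest with CpG, falling in wild type. Nfkbia, the classical inhibitor IκBα and a direct NF-κB target, whose promoter with 1 κB match is printed above, stood at 932, 932 and 904 in unstimulated wild type. With stimulation Nfkbia stood at 5550.1, 5375 and 5802 (LPS/IFN-γ), 6203, 7080.1 and 7262 (PolyI:C) and 5294, 4977 and 5006 (CpG). Nfkbia in libraries labelled CB2-/- was at 999, 1101 and 1249 unstimulated, 4411, 4681 and 4714 after LPS/IFN-γ, 2157, 2312 and 1834 after PolyI:C and 4958, 4642 and 4878 after CpG. Every stimulated library exceeded every unstimulated one, and the PolyI:C libraries labelled CB2-/- stood lowest among the stimulated groups. Responses were 2.59 ± 0.09, 2.89 ± 0.09 and 2.46 ± 0.09 in wild type (largest adjusted p = 6.2e-16, limma, BH) and 2.05 ± 0.09, 0.91 ± 0.09 and 2.12 ± 0.09 under the CB2-/- label (largest adjusted p = 4.42e-07). Nfkbiz, the nuclear IκBζ that helps switch on secondary response genes, stood at 323, 217 and 240.1 in unstimulated wild type. With stimulation Nfkbiz stood at 2473, 2302 and 2628 (LPS/IFN-γ), 3721, 3916 and 3833 (PolyI:C) and 7582, 5041 and 5337 (CpG). Nfkbiz in libraries labelled CB2-/- was at 379, 389 and 396 unstimulated, 1777, 1681 and 1739 after LPS/IFN-γ, 701, 792 and 859.6 after PolyI:C and 4620.4, 4255 and 4439.6 after CpG. CpG gave the highest values under both labels. The responses were 3.26 ± 0.13, 3.89 ± 0.13 and 4.52 ± 0.13 in wild type and 2.15 ± 0.13, 1.01 ± 0.13 and 3.51 ± 0.13 under the CB2-/- label, all called. Nfkbiz was at 435, 401 and 383 in wild-type replicates 4 to 6.

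Nfkbie, which encodes IκBε, an inhibitor of Rel-containing dimers, stood at 282, 247 and 241 in unstimulated wild type. With stimulation Nfkbie stood at 1496, 1575 and 1589.6 (LPS/IFN-γ), 965, 825 and 884 (PolyI:C) and 80, 137 and 161 (CpG). Nfkbie in libraries labelled CB2-/- was at 325, 352 and 302 unstimulated, 1696, 1753 and 1822 after LPS/IFN-γ, 891, 745 and 775 after PolyI:C and 732, 714 and 703 after CpG. In wild type it rose with LPS/IFN-γ and PolyI:C (2.60 ± 0.18 and 1.79 ± 0.18) and fell with CpG (-1.07 ± 0.18, adjusted p = 4.31e-05, limma, BH), with no overlap in any. It rose with all 3 under the CB2-/- label, CpG included (1.13 ± 0.18, adjusted p = 5.56e-05), so the CpG responses had opposite signs. Nfkbib, the slower inhibitor IκBβ, stood at 204, 169.6 and 139 in unstimulated wild type. With stimulation Nfkbib stood at 2177, 1926 and 2218 (LPS/IFN-γ), 1137, 1559 and 1582 (PolyI:C) and 578, 534 and 767 (CpG). Nfkbib in libraries labelled CB2-/- was at 240.0, 287 and 289 unstimulated, 1221, 1329 and 1362 after LPS/IFN-γ, 411, 501 and 451 after PolyI:C and 1031, 1041 and 1117 after CpG. It rose in each response, from 0.74 (PolyI:C labelled CB2-/-) to 3.63 (LPS/IFN-γ in wild type). Nfkbib was at 268, 213 and 249 in wild-type replicates 4 to 6. Bcl3, a nuclear IκB that acts with NF-κB homodimers, rose by 1.46, 1.35 and 1.88 in wild type and by 1.36 and 1.76 with LPS/IFN-γ and CpG under the CB2-/- label, where PolyI:C gave 0.72 ± 0.28 (adjusted p = 0.12, limma, BH).

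Of the 7 genes of the A20 and IRAK-M group, wild type had 6 higher with LPS/IFN-γ, 6 with PolyI:C and 5 with CpG (medians 2.97, 3.07 and 1.55). Under the CB2-/- label 7, 6 and 6 rose (medians 2.20, 0.97 and 1.85). None fell. Tnfaip3, which encodes the ubiquitin-editing enzyme A20, stood at 425, 278 and 226 in unstimulated wild type. With stimulation Tnfaip3 stood at 4683, 4612 and 4468 (LPS/IFN-γ), 4226, 5479 and 5223 (PolyI:C) and 577, 1118 and 1056 (CpG). Tnfaip3 in libraries labelled CB2-/- was at 1015, 927 and 998 unstimulated, 5278, 4927 and 4944 after LPS/IFN-γ, 2162, 2232 and 2074 after PolyI:C and 3837, 3819.5 and 3565 after CpG. No stimulated library overlapped the unstimulated ones of its own comparison. In wild type the response to CpG was the smallest (3.94 ± 0.21, 4.04 ± 0.21 and 1.55 ± 0.21), and under the CB2-/- label that to PolyI:C (2.36 ± 0.21, 1.14 ± 0.21 and 1.93 ± 0.21). All 6 were called, the largest adjusted p being 0.000668 (limma, BH). Irak3, which encodes IRAK-M, a brake on TLR and interleukin receptor signalling, stood at 193, 192 and 201 in unstimulated wild type. With stimulation Irak3 stood at 2198, 2263 and 2160.1 (LPS/IFN-γ), 2637, 2897 and 2969 (PolyI:C) and 1078, 1786 and 1703 (CpG). Irak3 in libraries labelled CB2-/- was at 265, 289 and 245 unstimulated, 1663, 1756 and 1879 after LPS/IFN-γ, 923, 842 and 967 after PolyI:C and 1658, 1759 and 1815 after CpG. It rose in all 6 responses, by 3.49, 3.85 and 2.92 in wild type and 2.73, 1.77 and 2.71 under the CB2-/- label, again least for PolyI:C under that label. Irak3 was at 228, 165 and 204 in wild-type replicates 4 to 6. Tnip3, an A20-binding partner, stood at 197, 69.1 and 119.6 in unstimulated wild type. With stimulation Tnip3 stood at 909, 892 and 995 (LPS/IFN-γ), 1596, 1534 and 1560.4 (PolyI:C) and 3416, 3431 and 2841 (CpG). Tnip3 in libraries labelled CB2-/- was at 142, 122 and 137 unstimulated, 356, 344 and 397 after LPS/IFN-γ, 143, 279.6 and 246 after PolyI:C and 513, 525 and 419 after CpG. CpG gave the highest values under both labels, and wild-type replicate 1 stood highest of its unstimulated group at 197. Responses were 2.97 ± 0.25, 3.72 ± 0.25 and 4.76 ± 0.25 in wild type. Those under the CB2-/- label were 1.45 ± 0.25, 0.68 ± 0.25 and 1.85 ± 0.25, of which PolyI:C did not pass (adjusted p = 0.109, limma, BH), although without PolyI:C replicate 1 of that label it was 0.97 and called.

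Tnip1, the best known A20-binding partner, stood at 293, 429 and 373 in unstimulated wild type. With stimulation Tnip1 stood at 2101, 2118 and 2083 (LPS/IFN-γ), 2678, 3280.4 and 3175 (PolyI:C) and 1820.3, 1966 and 2199.6 (CpG). Tnip1 in libraries labelled CB2-/- was at 483, 536 and 567 unstimulated, 2342, 2391 and 2570.4 after LPS/IFN-γ, 982, 1119 and 1008 after PolyI:C and 2247, 2191 and 2149 after CpG. It rose in all 6 responses, by 2.54, 3.07 and 2.46 in wild type and 2.20, 0.97 and 2.06 under the CB2-/- label, with no overlap in any. Tnip2, another A20-binding protein, which also binds Map3k8, stood at 357, 264 and 349 in unstimulated wild type. With stimulation Tnip2 stood at 330.1, 335 and 284 (LPS/IFN-γ), 534, 386 and 380.3 (PolyI:C) and 347, 268 and 248 (CpG). Tnip2 in libraries labelled CB2-/- was at 236, 230.3 and 193 unstimulated, 353, 357 and 356 after LPS/IFN-γ, 289, 384 and 386 after PolyI:C and 245, 213 and 260.0 after CpG. It passed in no wild-type response (-0.02, 0.42 and -0.17) and rose under the CB2-/- label with LPS/IFN-γ (0.70 ± 0.18) and PolyI:C (0.67 ± 0.18, a call lost on dropping any of 3 of its 6 libraries, at 0.58 to 0.61). N4bp1, a suppressor of NF-κB signalling that caspase cleavage removes, stood at 832, 877 and 1007 in unstimulated wild type. With stimulation N4bp1 stood at 2622, 2609 and 2723 (LPS/IFN-γ), 2983, 2682 and 2793 (PolyI:C) and 1036, 1075 and 1034 (CpG). N4bp1 in libraries labelled CB2-/- was at 842, 828 and 878 unstimulated, 2327, 2342 and 2272 after LPS/IFN-γ, 1599, 1644 and 1742 after PolyI:C and 1461, 1629 and 1469.9 after CpG. Of its responses only CpG in wild type missed the threshold (0.22 ± 0.09, adjusted p = 0.065, limma, BH; 0.29 and called without unstimulated replicate 3). The 5 others ranged from 0.84 to 1.64. Tnfaip2, a cytosolic protein induced by tumour necrosis factor, stood at 1435, 821 and 1142 in unstimulated wild type. With stimulation Tnfaip2 stood at 9783, 10598 and 9736 (LPS/IFN-γ), 1403, 2165 and 2008 (PolyI:C) and 2490.1, 1903 and 1896 (CpG). Tnfaip2 in libraries labelled CB2-/- was at 926, 881 and 878 unstimulated, 5469, 6288 and 6002 after LPS/IFN-γ, 1229, 1465 and 1236 after PolyI:C and 2434, 2475 and 2766 after CpG. LPS/IFN-γ gave by far the highest values under both labels (3.18 ± 0.16 and 2.72 ± 0.16). The other responses were 0.54 to 1.51, and that to PolyI:C under the CB2-/- label was lost on dropping any of 6 of its 6 libraries, at 0.46 to 0.59. Tnfaip2 was at 754, 989.8 and 856 in wild-type replicates 4 to 6.

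The SOCS genes split: Socs3 rose in all 6 responses, Socs1 rose mainly with LPS/IFN-γ, and Socs2 fell in 5. Socs1, an interferon-induced inhibitor of JAK kinases, stood at 5.46, 16.8 and 8.12 in unstimulated wild type. With stimulation Socs1 stood at 2569, 1665 and 2274 (LPS/IFN-γ), 106, 173 and 219 (PolyI:C) and 2.91, 21.9 and 55.4 (CpG). Socs1 in libraries labelled CB2-/- was at 81.3, 83.1 and 83.9 unstimulated, 975, 959 and 1014 after LPS/IFN-γ, 315, 175 and 265 after PolyI:C and 215, 210.4 and 273 after CpG. The LPS/IFN-γ libraries, the only ones that received interferon-γ, stood highest under both labels, with no overlap with any other group. In wild type Socs1 rose by 7.72 ± 0.65 with LPS/IFN-γ and 3.98 ± 0.65 with PolyI:C, while CpG, whose libraries ran from 2.91 to 55.4, gave 0.76 ± 0.65 (adjusted p = 0.403, limma, BH; 1.82 and called without CpG replicate 1). The rise with LPS/IFN-γ was 3.55 ± 0.65 under the CB2-/- label (adjusted p = 0.000177), and PolyI:C and CpG gave 1.55 ± 0.65 and 1.47 ± 0.65, neither of which passed although no library overlapped. Socs3, an inhibitor of signalling through the shared cytokine receptors, whose promoter with 1 GAS match is printed above, stood at 181, 314 and 291 in unstimulated wild type. With stimulation Socs3 stood at 8577, 8128 and 8805 (LPS/IFN-γ), 6828, 8857 and 9520.1 (PolyI:C) and 3886, 5521 and 5813 (CpG). Socs3 in libraries labelled CB2-/- was at 1101, 1355 and 1147 unstimulated, 7227, 7476 and 7679.6 after LPS/IFN-γ, 3170.3, 3092 and 2909 after PolyI:C and 7149.5, 6771 and 7532 after CpG. All stimulated libraries lay far above unstimulated ones. Responses were 5.06 ± 0.23, 5.02 ± 0.23 and 4.29 ± 0.23 in wild type and 2.64 ± 0.23, 1.35 ± 0.23 and 2.58 ± 0.23 under the CB2-/- label, where the unstimulated libraries themselves stood at 1101 to 1355. Socs2, a regulator of growth hormone signalling, stood at 44.9, 56.5 and 44 in unstimulated wild type. With stimulation Socs2 stood at 21.3, 4.94 and 10.8 (LPS/IFN-γ), 10.3, 12.2 and 11.8 (PolyI:C) and 0, 1.09 and 6.8 (CpG). Socs2 in libraries labelled CB2-/- was at 98.9, 124 and 135 unstimulated, 27.3, 30.4 and 29.9 after LPS/IFN-γ, 122, 163 and 89.9 after PolyI:C and 16.5, 20.6 and 35.7 after CpG. In wild type it fell, at -2.08 ± 0.57, -1.99 ± 0.57 and -4.28 ± 0.57, the last being -3.61 and -5.09 without CpG replicates 1 and 3. It fell with LPS/IFN-γ (-1.98 ± 0.57) and CpG (-2.31 ± 0.57) under the CB2-/- label, and PolyI:C gave 0.04 ± 0.57 with overlapping groups. Socs2 was at 173, 61.4 and 75.6 in wild-type replicates 4 to 6.

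All 3 RNA decay genes rose with each stimulus in wild type. Under the CB2-/- label 3, 2 and 3 did. Zc3h12a, which encodes Regnase, an endonuclease that cleaves cytokine transcripts, stood at 258, 223 and 205 in unstimulated wild type. With stimulation Zc3h12a stood at 2135, 2034 and 2146 (LPS/IFN-γ), 1269, 1931 and 2026 (PolyI:C) and 1535, 1588 and 1598 (CpG). Zc3h12a in libraries labelled CB2-/- was at 410.2, 455 and 506 unstimulated, 1118, 1147 and 1252 after LPS/IFN-γ, 772, 722 and 590.5 after PolyI:C and 1935, 1952 and 2249.6 after CpG. Groups did not overlap. Wild-type responses were 3.20 ± 0.17, 2.90 ± 0.17 and 2.78 ± 0.17, near each other, whereas those under the CB2-/- label were spread (1.36 ± 0.17, 0.60 ± 0.17 and 2.16 ± 0.17), the PolyI:C call being lost on dropping any of 4 of its 6 libraries, at 0.52 to 0.60. Zfp36, which encodes tristetraprolin, a decay factor for AU-rich transcripts, stood at 2263, 1178 and 1557 in unstimulated wild type. With stimulation Zfp36 stood at 2944, 2865 and 3146 (LPS/IFN-γ), 2600.1, 2469 and 2655 (PolyI:C) and 3390.5, 1946 and 2154 (CpG). Zfp36 in libraries labelled CB2-/- was at 1061, 1094 and 989 unstimulated, 1678, 1800.3 and 1694 after LPS/IFN-γ, 938, 1139 and 939 after PolyI:C and 1714, 1705 and 1739.6 after CpG. Its rises were small, 0.89, 0.68 and 0.59 in wild type, and wild-type replicate 1 stood highest both unstimulated and with CpG. The CpG call was lost without wild-type unstimulated replicate 2 or wild-type CpG replicate 1, at 0.35 to 0.37. LPS/IFN-γ and CpG gave 0.72 and 0.72 under the CB2-/- label, both called, and PolyI:C -0.06 ± 0.18 with overlapping groups. Zfp36 was at 1087, 751 and 859 in wild-type replicates 4 to 6. Zc3h12c, a relative of Zc3h12a, rose by 2.11, 2.24 and 2.02 in wild type and 1.67, 0.95 and 2.18 under the CB2-/- label, from 162, 106 and 118 and 125, 95.2 and 122 unstimulated.

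The 9 dual-specificity phosphatase genes behaved least alike: 6, 5 and 4 rose in wild type and 3, 1 and 3 under the CB2-/- label, while Dusp6 fell with CpG under both labels. Dusp2, a nuclear MAP kinase phosphatase of activated leukocytes, stood at 14.5, 7.97 and 10.5 in unstimulated wild type. With stimulation Dusp2 stood at 311, 282 and 429 (LPS/IFN-γ), 1378, 1033 and 1051 (PolyI:C) and 1402, 915 and 939.6 (CpG). Dusp2 in libraries labelled CB2-/- was at 5.66, 7.28 and 2.65 unstimulated, 146, 184 and 159 after LPS/IFN-γ, 39.8, 23.1 and 40.8 after PolyI:C and 483, 372 and 449.9 after CpG. From unstimulated values of at most 16.4, PolyI:C and CpG took it highest in wild type, and CpG took it highest under the CB2-/- label. Responses were 4.85 ± 0.43, 6.61 ± 0.43 and 6.51 ± 0.43 in wild type and 4.80 ± 0.43, 2.56 ± 0.43 and 6.21 ± 0.43 under the CB2-/- label, all called (largest adjusted p = 0.000294, limma, BH). Dusp2 was at 16.4, 1.9 and 6.3 in wild-type replicates 4 to 6. Dusp1, the early-response phosphatase of stress kinases, stood at 291, 225 and 210.0 in unstimulated wild type. With stimulation Dusp1 stood at 572, 522 and 667 (LPS/IFN-γ), 1132, 884 and 1012 (PolyI:C) and 1547, 881 and 771 (CpG). Dusp1 in libraries labelled CB2-/- was at 256, 285 and 359 unstimulated, 451, 503 and 416 after LPS/IFN-γ, 408, 435 and 428 after PolyI:C and 932, 902 and 919.6 after CpG. In wild type LPS/IFN-γ gave the smallest rise (1.28 ± 0.19, 2.06 ± 0.19 and 2.08 ± 0.19). CpG gave 1.62 ± 0.19 under the CB2-/- label and LPS/IFN-γ 0.61 ± 0.19, a call lost on dropping any of 3 of its 6 libraries, at 0.51 to 0.58. PolyI:C gave 0.51 ± 0.19 there (adjusted p = 0.106, limma, BH).

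Dusp4, a nuclear phosphatase of MAP kinases, stood at 9.83, 8.41 and 11.8 in unstimulated wild type. With stimulation Dusp4 stood at 155, 107 and 98.2 (LPS/IFN-γ), 30.7, 86.6 and 65.2 (PolyI:C) and 8.72, 24.7 and 40.9 (CpG). Dusp4 in libraries labelled CB2-/- was at 262, 303 and 305 unstimulated, 294, 229 and 316 after LPS/IFN-γ, 388, 302 and 356 after PolyI:C and 262, 268 and 237 after CpG. Dusp4 was at 256, 110.4 and 119.6 in wild-type replicates 4 to 6. The second series thus stood above the first without any stimulus, and the libraries labelled CB2-/- were at 229 to 388 whether stimulated or not. Wild type rose with LPS/IFN-γ (3.44 ± 0.40) and PolyI:C (2.38 ± 0.40) from its low first-series level, and CpG gave 1.00 ± 0.40, which did not pass but was 1.59 and called without CpG replicate 1. No response passed under the CB2-/- label (-0.06, 0.26 and -0.18). Dusp5, another nuclear MAP kinase phosphatase, stood at 38.2, 84.1 and 49.4 in unstimulated wild type. With stimulation Dusp5 stood at 465, 438 and 544 (LPS/IFN-γ), 269, 344 and 359 (PolyI:C) and 103, 104 and 105 (CpG). Dusp5 in libraries labelled CB2-/- was at 351, 418 and 375 unstimulated, 437, 421 and 434 after LPS/IFN-γ, 326, 389 and 337 after PolyI:C and 329, 321 and 331 after CpG. It had the same outline: rises of 3.12 ± 0.26, 2.55 ± 0.26 and 0.93 ± 0.26 in wild type, the CpG call being lost without wild-type unstimulated replicate 1, at 0.68, and 0.18, -0.12 and -0.22 under the CB2-/- label, none called. Dusp6, its cytoplasmic counterpart, stood at 864, 917 and 968 in unstimulated wild type. With stimulation Dusp6 stood at 925, 759 and 795 (LPS/IFN-γ), 823, 1568 and 1583 (PolyI:C) and 234, 449.6 and 283 (CpG). Dusp6 in libraries labelled CB2-/- was at 2184, 2529.9 and 2529 unstimulated, 908, 1093 and 1081 after LPS/IFN-γ, 2207, 2373 and 1956 after PolyI:C and 619, 709 and 619 after CpG. It fell with CpG by -1.56 ± 0.21 in wild type and -1.89 ± 0.21 under the CB2-/- label. LPS/IFN-γ lowered it under the CB2-/- label (-1.23 ± 0.21) and gave -0.15 ± 0.21 in wild type. PolyI:C gave 0.47 and -0.15, neither called, although the first was 0.78 and called without wild-type PolyI:C replicate 1. Dusp6 was at 2115, 2125 and 1624 in wild-type replicates 4 to 6. Dusp10, a phosphatase of the stress kinases, stood at 12.3, 16.6 and 3.63 in unstimulated wild type. With stimulation Dusp10 stood at 59.7, 68.5 and 94.8 (LPS/IFN-γ), 26.5, 32.4 and 31.2 (PolyI:C) and 0, 17.2 and 18.9 (CpG). Dusp10 in libraries labelled CB2-/- was at 19.4, 32.4 and 11.3 unstimulated, 70.8, 76.5 and 62.4 after LPS/IFN-γ, 43.3, 45.6 and 39.8 after PolyI:C and 46.9, 36.4 and 44.3 after CpG. These levels were low, and only the rise with LPS/IFN-γ in wild type passed (2.85 ± 0.76, adjusted p = 0.00388, limma, BH). Dusp10 was at 20.8, 34.1 and 8.93 in wild-type replicates 4 to 6. Dusp16, a phosphatase of JNK, rose by 1.98, 2.69 and 1.60 in wild type and with LPS/IFN-γ (1.28) and CpG (1.03) under the CB2-/- label, where PolyI:C gave 0.29 with overlapping groups.

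All 6 survival, TRAF and kinase genes rose with every stimulus in wild type (medians 2.03, 2.15 and 1.35). Under the CB2-/- label 6, 4 and 6 rose (medians 1.63, 0.75 and 1.47). Traf1, a signalling adaptor and well-known NF-κB target, stood at 11.6, 30.9 and 55.7 in unstimulated wild type. With stimulation Traf1 stood at 5935, 6751 and 6806 (LPS/IFN-γ), 5068, 5787 and 5886 (PolyI:C) and 837, 987 and 1027 (CpG). Traf1 in libraries labelled CB2-/- was at 198, 264 and 205 unstimulated, 4069.6, 3869.6 and 3846 after LPS/IFN-γ, 1126, 894 and 942 after PolyI:C and 2475, 2555 and 2365 after CpG. It stood at no more than 55.7 before stimulation and at 5068 or more with LPS/IFN-γ or PolyI:C in wild type, and had the largest member response to LPS/IFN-γ and to PolyI:C there. Responses were 7.84 ± 0.29, 7.62 ± 0.29 and 5.06 ± 0.29 in wild type (largest adjusted p = 1.01e-12, limma, BH). Without unstimulated replicate 1, the lowest library, those to LPS/IFN-γ and PolyI:C were 7.25 and 7.03. Traf1 responses under the CB2-/- label were 4.15 ± 0.29, 2.15 ± 0.29 and 3.48 ± 0.29. Birc3, an apoptosis inhibitor and ubiquitin ligase of the NF-κB pathway, stood at 695, 565 and 478 in unstimulated wild type. With stimulation Birc3 stood at 1985, 2369 and 1998 (LPS/IFN-γ), 1801, 1938 and 2023 (PolyI:C) and 1764, 1339 and 1290.5 (CpG). Birc3 in libraries labelled CB2-/- was at 462, 447 and 463 unstimulated, 1313, 1429 and 1404 after LPS/IFN-γ, 767, 1197 and 772 after PolyI:C and 1425, 1318 and 1401 after CpG. All 6 responses were called and none overlapped, at 1.88, 1.74 and 1.34 in wild type and 1.59, 0.96 and 1.59 under the CB2-/- label. Birc3 was at 335, 525 and 579 in wild-type replicates 4 to 6. Cflar, an inhibitor of caspase activation, stood at 1248, 1298 and 1711 in unstimulated wild type. With stimulation Cflar stood at 5726, 5654 and 5996 (LPS/IFN-γ), 6642, 6273 and 6264 (PolyI:C) and 2677, 2491 and 2573 (CpG). Cflar in libraries labelled CB2-/- was at 1415, 1521 and 1096 unstimulated, 4760.1, 4633 and 4553 after LPS/IFN-γ, 1958, 1925 and 1929 after PolyI:C and 3009, 2744 and 2818 after CpG. It rose in all 6 responses, from 0.54 (PolyI:C labelled CB2-/-, a call lost without CB2-/--labelled unstimulated replicate 3, at 0.40) to 2.19 (PolyI:C in wild type).

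Traf2, partner adaptor of Traf1, stood at 189, 239.8 and 181 in unstimulated wild type. With stimulation Traf2 stood at 865, 865 and 1000.2 (LPS/IFN-γ), 989, 809 and 830.1 (PolyI:C) and 598, 506 and 467 (CpG). Traf2 in libraries labelled CB2-/- was at 261, 257 and 304 unstimulated, 877, 819 and 806 after LPS/IFN-γ, 291, 357 and 342 after PolyI:C and 684, 653 and 709 after CpG. PolyI:C under the CB2-/- label gave 0.27 ± 0.18 with overlapping groups, and the 5 other responses were called, from 1.32 to 2.16. Map3k8, a kinase held in check by the Nfkb1 precursor, stood at 255, 219 and 206 in unstimulated wild type. With stimulation Map3k8 stood at 306, 273 and 300.2 (LPS/IFN-γ), 623, 627 and 525 (PolyI:C) and 511, 514 and 580.4 (CpG). Map3k8 in libraries labelled CB2-/- was at 155, 133 and 168 unstimulated, 235, 241 and 211 after LPS/IFN-γ, 205, 205 and 195 after PolyI:C and 372, 409 and 376 after CpG. It rose with PolyI:C and CpG in wild type (1.38 ± 0.15 and 1.24 ± 0.15). LPS/IFN-γ gave 0.37 ± 0.15 there, a call lost on dropping any of 5 of its 6 libraries, at 0.31 to 0.42. It rose with LPS/IFN-γ and CpG under the CB2-/- label (0.59 and 1.34), and PolyI:C gave 0.41 ± 0.15 (adjusted p = 0.0855, limma, BH). Map3k8 was at 163, 103 and 136 in wild-type replicates 4 to 6. Ikbke, an IκB kinase relative that also acts in interferon induction, rose in all 6 responses, by 2.02, 2.53 and 1.73 in wild type and 1.66, 1.32 and 1.61 under the CB2-/- label.

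**Figure D2:**
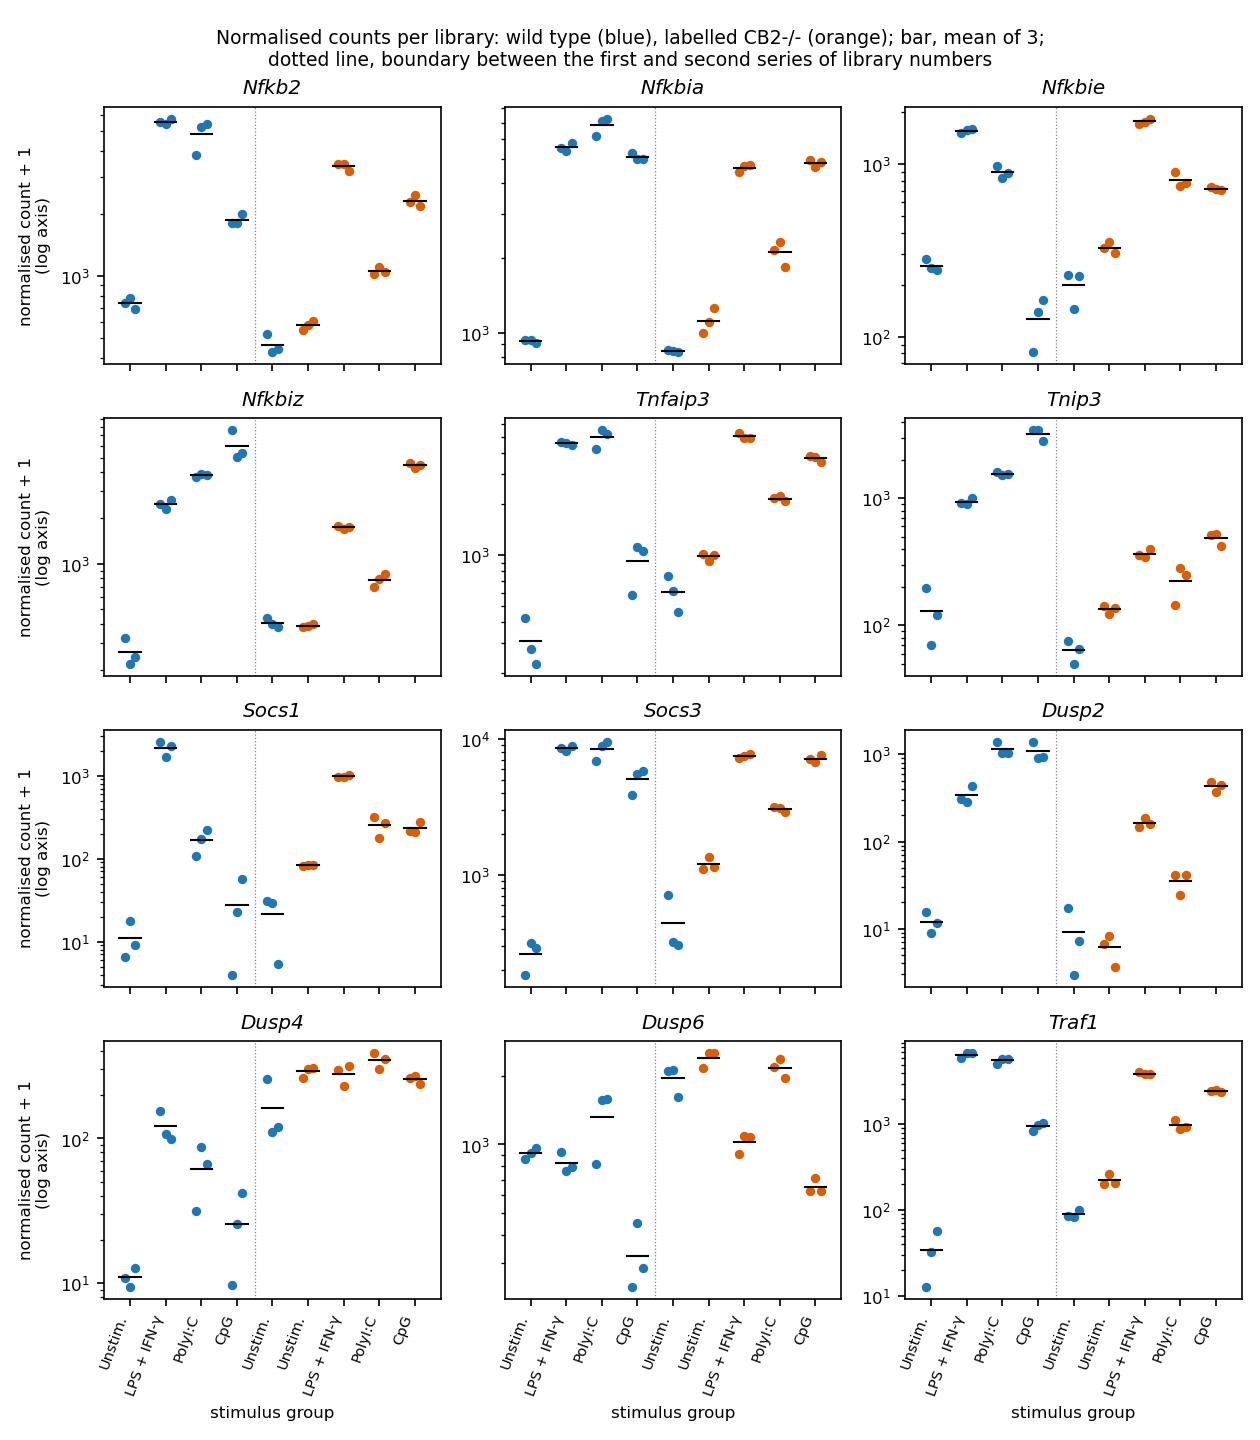
Normalised count + 1 of 12 members in each library (log axis) by stimulus group, wild type in blue and labelled CB2-/- in orange, with a bar at the mean of 3 libraries and a dotted line between the 2 series of library numbers. Traf1 climbs from 11.6 to 55.7 unstimulated to 5935 to 6806 with LPS/IFN-γ in wild type, and in the second series its unstimulated libraries already stand higher.

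Whether the 3 stimuli were alike for these genes was asked by setting them against each other within a genotype label. LPS was never given without interferon-γ, so what each of that pair adds cannot be told apart. These fold changes use no unstimulated library, but their SE and calls rest on a spread estimated from all 27 libraries. In wild type LPS/IFN-γ and PolyI:C differed least: 4 members were higher and 6 lower with LPS/IFN-γ, with 9.26% of all genes called (5.35% higher, 3.91% lower). Socs1 (3.74 ± 0.65), Tnfaip2 (2.46 ± 0.16), Nfkbie (0.80 ± 0.18) and Nfkbib (0.58 ± 0.15, lost on dropping any of 3 of its 6 libraries, at 0.42 to 0.55) were higher. The lowest were Dusp2 (-1.77 ± 0.43), Map3k8 (-1.01 ± 0.15), Dusp1 (-0.78 ± 0.19, lost without wild-type LPS/IFN-γ replicate 2, at -0.70) and Nfkbiz (-0.63 ± 0.13). Tnip1 (-0.53 ± 0.11) and Nfkbia (-0.29 ± 0.09, lost on dropping any of 5 of its 6 libraries, at -0.32 to -0.25) complete the 6. Against CpG, LPS/IFN-γ had 21 members higher and 5 lower in wild type (17 and 7 after quantile scaling), with 32.8% of all genes called (19.7% higher, 13.1% lower). Highest were Socs1 (6.96 ± 0.65; 5.89 and 7.82 without CpG replicates 1 and 3), Nfkbie (3.67 ± 0.18), Dusp10 (3.38 ± 0.76; 1.96, 4.05 and 4.11 without CpG replicates 1, 2 and 3) and Traf1 (2.77 ± 0.29). The 5 lower ones were Tnip3 (-1.79 ± 0.25), Dusp2 (-1.66 ± 0.43), Nfkbiz (-1.26 ± 0.13), Map3k8 (-0.87 ± 0.15) and Dusp1 (-0.80 ± 0.19). Socs3, one of the 21 (0.77), was at -0.01 after quantile scaling and was lost without wild-type CpG replicate 1, at 0.59. CpG in wild type thus stood low for Nfkbie and Traf1 and high for Tnip3 and Nfkbiz. LPS/IFN-γ under the CB2-/- label stood above PolyI:C for 24 members and below for 2, with 11.9% of all genes called (6.95% higher, 4.96% lower). The highest were Dusp2 (2.24 ± 0.43), Tnfaip2 (2.18 ± 0.16), Traf1 (2.00 ± 0.29) and Socs1 (2.00 ± 0.65, lost on dropping any of 6 of its 6 libraries, at 1.76 to 2.18). The lower pair were Socs2 (-2.02 ± 0.57, lost on dropping any of 5 of its 6 libraries, at -2.05 to -1.81) and Dusp6 (-1.08 ± 0.21). LPS/IFN-γ against CpG under that label gave 9 higher and 5 lower (4 and 7 after quantile scaling), with 10.2% of all genes called (6.36% higher, 3.82% lower), and 9 of these 14 calls held without each library in turn. Nfkbie (1.29 ± 0.18), Tnfaip2 (1.21 ± 0.16) and Cflar (0.70 ± 0.13) were higher, as was Socs1 (2.08 ± 0.65, lost on dropping any of 6 of its 6 libraries, at 2.02 to 2.20). Nfkbiz (-1.36 ± 0.13), Dusp1 (-1.01 ± 0.19), Zc3h12a (-0.80 ± 0.17) and Dusp2 (-1.41 ± 0.43, lost on dropping any of 6 of its 6 libraries, at -1.52 to -1.33) were lower.

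**Figure D3:**
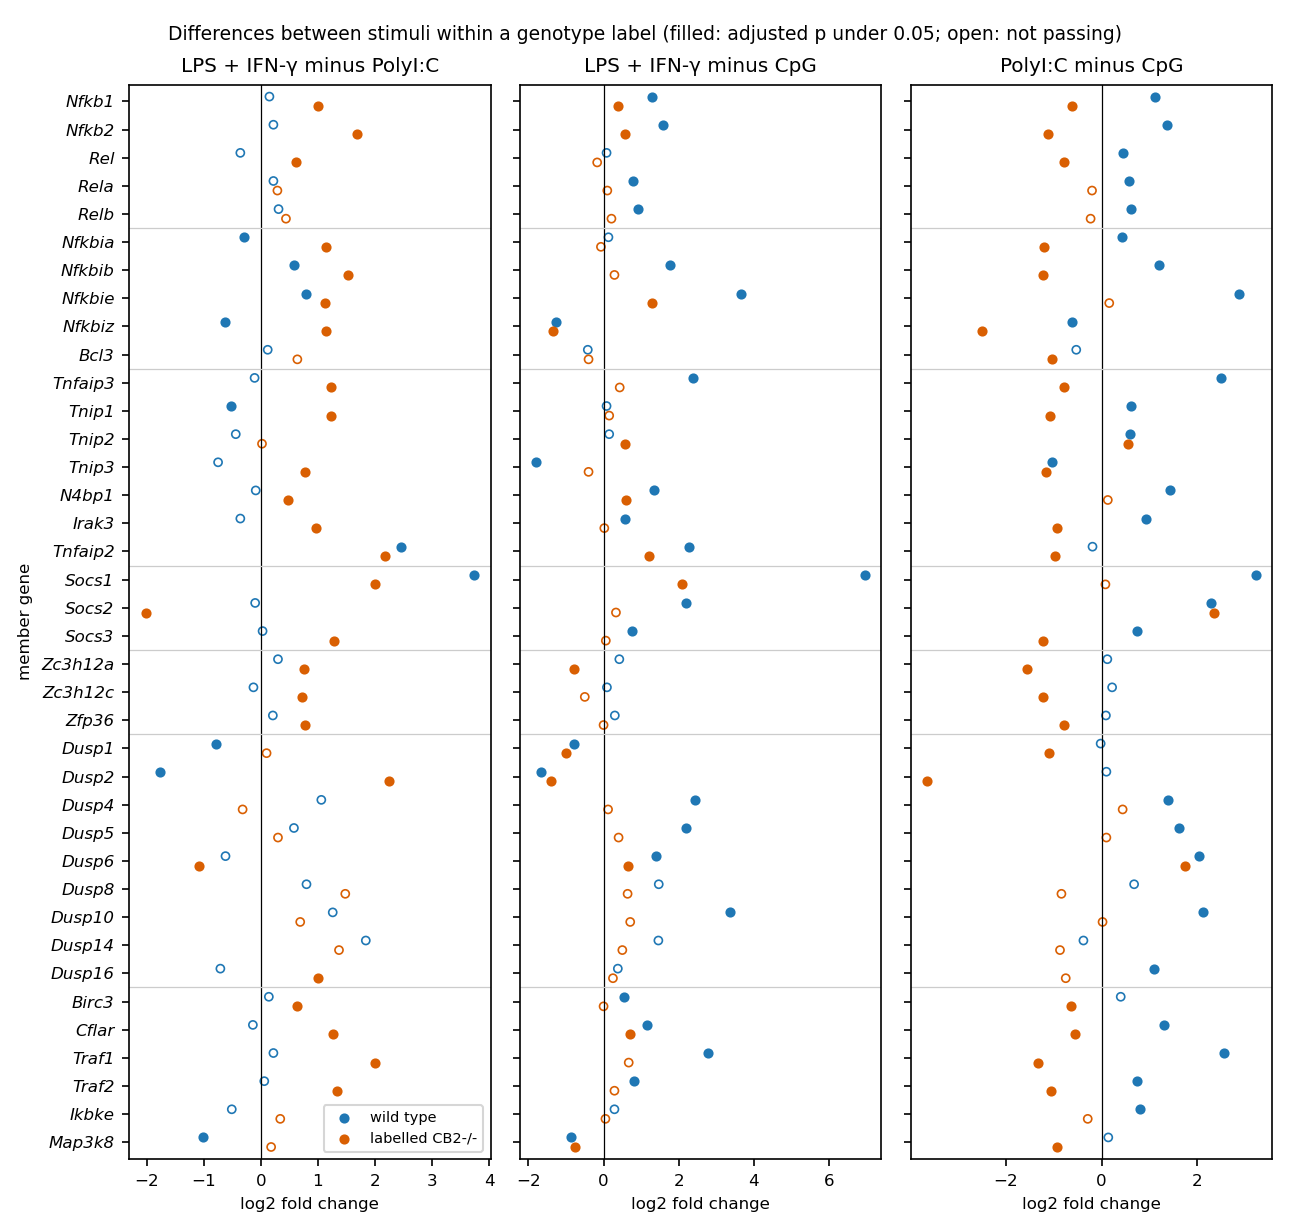
Log2 fold change between stimuli for each member (vertical axis) in wild type (blue) and labelled CB2-/- (orange), filled where the adjusted p was under 0.05. In the panel of PolyI:C minus CpG most wild-type points lie to the right of 0 and most points labelled CB2-/- to the left: 25 members were called higher in wild type (18 after quantile scaling, 14 with only the compared libraries in the fit) and 23 lower under the label.

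The difference between PolyI:C and CpG was not the same under both genotype labels. In wild type 25 members were higher with PolyI:C than with CpG and 2 were lower, with 30.1% of all genes called (17.6% higher, 12.5% lower), at a member median of 0.71 beside 0.02. After quantile scaling 18 were higher and 3 lower, and with only the compared libraries in the fit 14 were higher and 1 lower. Shares of all genes under these alternatives were not counted. Among libraries labelled CB2-/-, 3 were higher and 23 lower, with 12% of all genes called (6.39% higher, 5.56% lower), at a median of -0.82 beside 0.03. Called in opposite directions were 12 members, Nfkbia among them (0.42 in wild type, which turned to -0.21 after quantile scaling). The share of all genes called in opposite directions was not counted. Nfkbiz and Tnip3 were lower with PolyI:C under both labels, and Socs2, Dusp6 and Tnip2 higher under both, Tnip2 being lost on dropping any of 3 of its 6 libraries, at 0.43 to 0.54 in wild type and on dropping any of 5 of its 6 libraries, at 0.47 to 0.61 under the CB2-/- label. The wild-type differences were largest for Socs1 (3.22 ± 0.65; 2.15 and 4.08 without CpG replicates 1 and 3), Nfkbie (2.87 ± 0.18), Traf1 (2.56 ± 0.29) and Tnfaip3 (2.49 ± 0.21), and lowest for Tnip3 (-1.04 ± 0.25) and Nfkbiz (-0.62 ± 0.13). Under the CB2-/- label the lowest were Dusp2 (-3.65 ± 0.43), Nfkbiz (-2.50 ± 0.13), Zc3h12a (-1.56 ± 0.17) and Traf1 (-1.33 ± 0.29), and the 3 higher were Socs2 (2.35 ± 0.57), Dusp6 (1.74 ± 0.21) and Tnip2 (0.55 ± 0.18). The difference between the labels was itself tested, as a comparison added after the data were seen. It was lower under the CB2-/- label for 29 members and higher for 0, with 17% of all genes called (5.96% higher, 11.1% lower), at a member median of -1.52 beside -0.02. Without each library in turn 27 to 29 members were called, and after quantile scaling 24, again with no share of all genes counted. Traf1 (-3.88 ± 0.41), Dusp2 (-3.76 ± 0.60), Tnfaip3 (-3.28 ± 0.29), Socs1 (-3.14 ± 0.92; -2.07 and -4.0 without wild-type CpG replicates 1 and 3) and Nfkbie (-2.71 ± 0.26) differed most. All 5 NF-κB subunits were among the 29, from -0.77 (Rela) to -2.49 (Nfkb2). As no unstimulated library enters these fold changes, the gap between the unstimulated wild-type series does not touch them, although the spread came from all 27 libraries. Genotype label and number series remain the same split and cannot be told apart.

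Set against its own unstimulated cells, the log2 change with PolyI:C was lower under the CB2-/- label than in wild type for most members, and that with LPS/IFN-γ for some. For PolyI:C 26 members had a lower log2 change under the label and 0 a higher one, where 24.8% of all genes were called (10.8% higher, 13.9% lower), at a member median of -1.42 beside 0.08. The lowest were Traf1 (-5.47 ± 0.41; -4.88 without wild-type unstimulated replicate 1), Dusp2 (-4.06 ± 0.60), Socs3 (-3.67 ± 0.32) and Tnip3 (-3.04 ± 0.36). The IκB genes Nfkbiz (-2.89 ± 0.19), Nfkbib (-2.32 ± 0.22) and Nfkbia (-1.98 ± 0.13), and Tnfaip3 (-2.91 ± 0.29), were among them. So were all 3 RNA decay genes, although Zfp36 (-0.74 ± 0.26) was lost on dropping any of 9 of its 12 libraries, at -0.77 to -0.52, and all 6 survival genes, Birc3 (-0.78 ± 0.25) being lost on dropping any of 4 of its 12 libraries, at -0.74 to -0.65. Of the subunits, Nfkb2 (-1.84 ± 0.15), Rel (-1.11 ± 0.20) and Nfkb1 (-0.78 ± 0.16) passed, and Rela (-0.17 ± 0.15) and Relb (-0.30 ± 0.22) did not. For LPS/IFN-γ 13 members had a lower log2 change and 0 a higher one (12.3% of all genes called, 3.98% higher and 8.36% lower; member median -0.45 beside -0.02). No subunit was among them: Nfkb1 gave 0.08 ± 0.16, Nfkb2 -0.37 ± 0.15, Rel -0.13 ± 0.20, Rela -0.10 ± 0.15 and Relb -0.17 ± 0.22. The lowest were Socs1 (-4.16 ± 0.92), Traf1 (-3.69 ± 0.41; -3.10 without wild-type unstimulated replicate 1), Dusp4 (-3.50 ± 0.57) and Dusp5 (-2.95 ± 0.37). Of the 13, Dusp6 (-1.08 ± 0.29) fell under the label (-1.23) and gave -0.15, not called, in wild type, while the others had risen in wild type. A lower log2 change was not always a lower stimulated level. Tnfaip3 with LPS/IFN-γ averaged 5049 under the label and 4587 in wild type, from 980.1 and 309.7 unstimulated. Dusp5 with PolyI:C averaged 351 and 324, from 381 and 57.2. Traf1 with LPS/IFN-γ did stand lower under the label, at 3929 against 6497. With wild-type replicates 1 to 6 as 1 unstimulated group (no number series term) the LPS/IFN-γ difference of Dusp4 was -1.61 and no longer called, nor were those of Dusp6 (-0.54), Nfkbiz (-0.77) and Tnfaip3 (-1.07), and the PolyI:C difference of Dusp4 (-2.12) became -0.22, not called. Dusp4 stood at 155, 107 and 98.2 with LPS/IFN-γ in wild type, which overlapped the unstimulated replicates 4 to 6 (256, 110.4 and 119.6), against 9.83, 8.41 and 11.8 in replicates 1 to 3. For CpG 5 were higher and 5 lower (11.8% of all genes called, 6.11% higher and 5.66% lower; median 0.11 beside 0.10). Higher were Nfkbie (2.21 ± 0.26), Nfkb1 (0.97 ± 0.16), Nfkb2 (0.66 ± 0.15), N4bp1 (0.62 ± 0.13) and Rela (0.60 ± 0.15). Of these, Nfkb1, Nfkb2, N4bp1 and Rela missed the threshold without the series term. Lower were Tnip3 (-2.91 ± 0.36), Socs3 (-1.71 ± 0.32), Traf1 (-1.59 ± 0.41; -1.0 without wild-type unstimulated replicate 1), Dusp5 (-1.15 ± 0.37, lost on dropping any of 11 of its 12 libraries, at -1.20 to -0.90) and Nfkbiz (-1.0 ± 0.19). The 5 members lower in all 3 differences, a count not made over all genes, were Nfkbiz, Tnip3, Socs3, Dusp5 and Traf1. Without the series term 4 members were called for CpG in place of 10, and of these 5 only Tnip3 and Socs3 were still called in all 3: the CpG differences of Nfkbiz, Dusp5 and Traf1 were -0.67, -0.45 and -0.76. These 3 comparisons share the unstimulated libraries of each label.

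**Figure D4:**
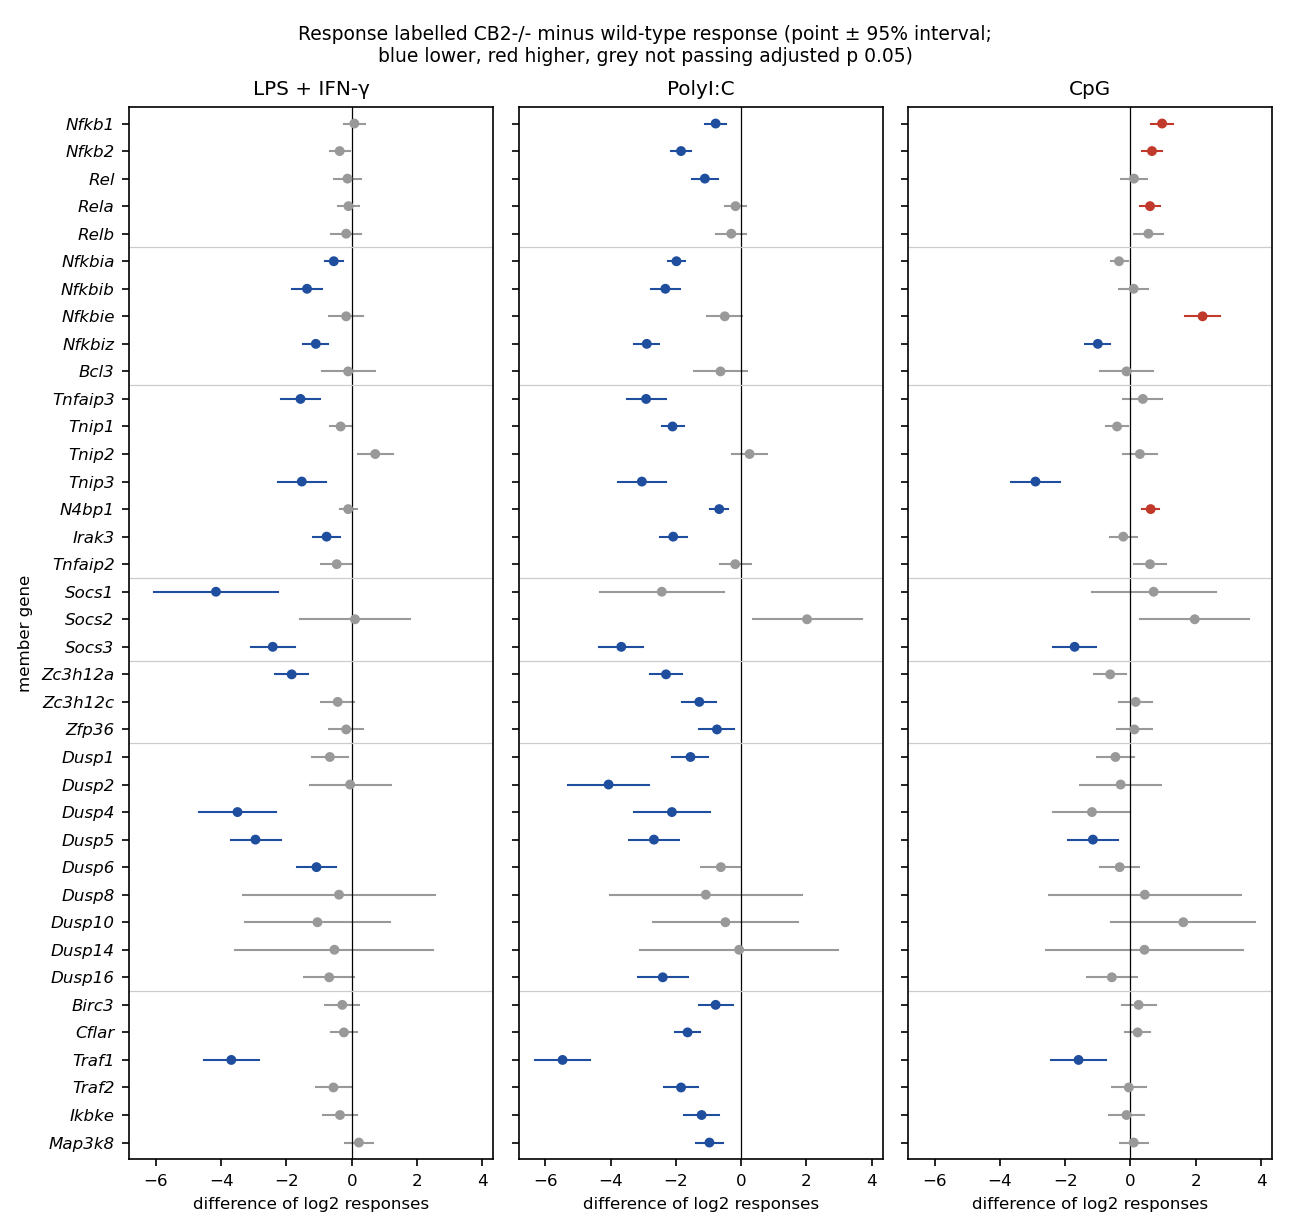
Difference of log2 responses, labelled CB2-/- minus wild type, for each member (vertical axis), as a point with its 95% interval, blue where lower and red where higher at an adjusted p under 0.05. For PolyI:C 26 points are blue, for LPS/IFN-γ 13, and for CpG 5 are blue and 5 red.

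Before any stimulus 14 members were higher under the CB2-/- label than in wild-type replicates 4 to 6 and 1 was lower, where 9.90% of all genes were called (6.25% higher, 3.65% lower). Values under the label are those given above. The 2 sides came from separate runs of library numbers, 2048 to 2050 and 2186 to 2188, so genotype and run cannot be told apart. Without each library in turn 8 to 18 members were called, and 7 of the 15 were called every time: Nfkbia, Tnip1, Tnip3, Socs3, Dusp5, Traf1 and Traf2. Of the 14, wild-type Nfkbia stood at 849, 844 and 830.2 (0.40 ± 0.09), Tnip1 at 347, 368 and 318 (0.62 ± 0.11) and Tnip3 at 74.7, 48.7 and 64 (1.10 ± 0.25). Socs3 stood at 709, 320.1 and 304 (1.54 ± 0.23, adjusted p = 6.11e-05, limma, BH), with replicate 4 highest and still below all 3 libraries of the CB2-/- label. Dusp5 stood at 259, 90.3 and 126 (1.40 ± 0.26), Traf1 at 84.9, 82.4 and 99.5 (1.31 ± 0.29) and Traf2 at 98.1, 206 and 158 (0.89 ± 0.18). In none of these 7 did the groups overlap, but they were picked as calls that held without each library, which favours such separation. How many of all tested genes held every time or had no overlap was not counted. Nfkbie stood at 227, 144 and 224 (0.74 ± 0.18, lost without wild-type unstimulated replicate 5, at 0.53), Tnfaip3 at 748, 614 and 462 (0.71 ± 0.21, lost on dropping any of 5 of its 6 libraries, at 0.53 to 0.75) and N4bp1 at 764, 597 and 645 (0.35 ± 0.09, lost on dropping any of 3 of its 6 libraries, at 0.27 to 0.33). Socs1 stood at 29.5, 28.1 and 4.43 (2.31 ± 0.65, lost on dropping any of 4 of its 6 libraries, at 1.49 to 2.32), Zc3h12a at 325, 393 and 223 (0.58 ± 0.17, lost on dropping any of 3 of its 6 libraries, at 0.35 to 0.58) and Dusp1 at 196, 214 and 167 (0.63 ± 0.19, lost on dropping any of 3 of its 6 libraries, at 0.50 to 0.66). Cflar stood at 1182, 844 and 763 (0.54 ± 0.13, lost on dropping any of 3 of its 6 libraries, at 0.41 to 0.49), with groups that overlapped. The 1 lower member was Tnip2, at 269, 336 and 438 in wild type (-0.64 ± 0.18, lost on dropping any of 4 of its 6 libraries, at -0.67 to -0.45). With only these 6 libraries in the fit, 4 members were called in place of 15. The share of all genes called in that smaller fit was not counted, so the drop is not particular to the members. The fibroblast and meningeal marker sum was 37882 to 60680.4 in wild-type replicates 4 to 6 and 13551 to 14787 under the CB2-/- label, and its part in these values was not tested.

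The unstimulated wild-type libraries of the 2 number series also differed, in a comparison added after the data were seen. Replicates 4 to 6 stood above replicates 1 to 3 for 7 members and below for 10, with 12% of all genes called (6.33% higher, 5.66% lower). Higher in replicates 4 to 6 were Dusp4 (3.79 ± 0.40), Traf1 (1.66 ± 0.29), Dusp5 (1.39 ± 0.26), Dusp6 (1.08 ± 0.21), Tnfaip3 (0.99 ± 0.21), Nfkbiz (0.66 ± 0.13) and Nfkbib (0.52 ± 0.15, lost on dropping any of 3 of its 6 libraries, at 0.38 to 0.50). Lower were Tnip3 (-0.92 ± 0.25, lost on dropping any of 3 of its 6 libraries, at -0.91 to -0.56), Zfp36 (-0.85 ± 0.18), Map3k8 (-0.77 ± 0.15), Nfkb1 (-0.70 ± 0.11), Nfkb2 (-0.67 ± 0.11), Cflar (-0.62 ± 0.13), Zc3h12c (-0.62 ± 0.18, lost on dropping any of 3 of its 6 libraries, at -0.61 to -0.44), N4bp1 (-0.44 ± 0.09), Rel (-0.44 ± 0.14, lost on dropping any of 4 of its 6 libraries, at -0.43 to -0.38) and Rela (-0.38 ± 0.11, lost on dropping any of 3 of its 6 libraries, at -0.34 to -0.26). Dusp4 thus differed between series of 1 genotype by more than its wild-type response to LPS/IFN-γ (3.44). Without each library in turn 13 to 19 members were called, and with only these 6 libraries in the fit 4 were, with no share of all genes counted for either.

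Other genes of the same pathways were counted in the same fit, and no test compared them with the members. Of 25 further kinases, adaptors and ubiquitin enzymes of the NF-κB pathway, 12 rose and 1 fell with LPS/IFN-γ in wild type (median 0.54), 5 rose and 2 fell with PolyI:C (0.18), and 3 rose and 4 fell with CpG (0.03). Called were 52, 28 and 28% of them, beside 39.7, 41.1 and 36.0% of all genes. The highest were Tank (1.59), the linear ubiquitin ligase gene Rnf31 (1.48) and Tbk1 (1.45), the kinase of interferon induction, with LPS/IFN-γ. With PolyI:C they were Tank (2.15), Pdlim2 (1.79) and Rnf31 (1.41), and with CpG Tank (0.92), Pdlim2 (0.49) and Tab2 (0.36). Lowest were Map3k7 (-0.54), the kinase TAK1, with LPS/IFN-γ, Map3k14 (-0.63) and Map3k7 (-0.46) with PolyI:C, and Traf5 (-1.52), Rbck1 (-0.69) and Traf6 (-0.61) with CpG. Under the CB2-/- label 10, 3 and 4 rose and 0 fell (40, 12 and 16% called, beside 23.7, 8.55 and 14.3% of all genes). They were led by Birc2 (1.42), Tbk1 (1.34) and Rnf31 (1.07) with LPS/IFN-γ, by Traf6 (0.91), Traf3 (0.72) and Tbk1 (0.71) with PolyI:C, and by Traf3 (0.80), Tank (0.71) and Tbk1 (0.54) with CpG. Of 16 tested further dual-specificity phosphatases and MAP kinases, 2, 3 and 0 rose and 4, 3 and 4 fell in wild type (37.5, 37.5 and 25% called; medians -0.23, -0.31 and -0.32), and 1, 0 and 0 rose and 2, 0 and 2 fell under the CB2-/- label (18.8, 0 and 12.5% called). Dusp15 was not tested. With LPS/IFN-γ Dusp11 (0.84) and Map2k4 (0.46) rose and Dusp22 (-1.52), Mapk14 (-0.86) and Dusp3 (-0.83) fell. With PolyI:C Dusp11 (1.09), Mapk8 (0.77) and Map2k4 (0.66) rose and Dusp22 (-2.43), Dusp3 (-1.17) and Mapk14 (-0.41) fell. With CpG Map2k6 (-2.93), Dusp3 (-1.37) and Mapk3 (-0.88) fell. Under the CB2-/- label Dusp11 (0.74) rose and Dusp3 (-1.41) and Mapk14 (-0.55) fell with LPS/IFN-γ, and Dusp3 (-0.83) and Map2k3 (-0.40) fell with CpG. Of 17 further SOCS and RNA decay regulators, 4, 4 and 2 rose and 5, 3 and 8 fell in wild type (52.9, 41.2 and 58.8% called; medians -0.30, -0.21 and -0.72), and 0, 0 and 1 rose and 2, 0 and 2 fell under the CB2-/- label (11.8, 0 and 17.6% called). Cish, a cytokine-induced SOCS relative, rose with LPS/IFN-γ (3.36) and fell with CpG (-3.09). Zfp36l1 and Zfp36l2, relatives of Zfp36 that also shorten AU-rich transcripts, fell with each stimulus in wild type (-1.71, -2.08 and -3.16 and -2.54, -3.50 and -3.01), whereas Zfp36 rose. Zfp36l2 fell too with LPS/IFN-γ and CpG under the CB2-/- label (-1.77 and -1.71). Others that rose in wild type were Zc3h12d (1.86 and 1.94 with LPS/IFN-γ and PolyI:C), Ptpn6 (1.00, 1.24 and 1.20) and Ptpn11 (0.47 and 0.91 with PolyI:C and CpG). Inpp5d fell with LPS/IFN-γ (-1.0 and -0.43), with PolyI:C in wild type (-1.03) and with CpG under the CB2-/- label (-0.65), where Ptpn6 (0.42) rose.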

How the data were processed

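RNA of 27 libraries was sequenced as 75 bp single-end reads. The labels describe TruSeq v2 libraries on a HiSeq1500 and low-input SMART-Seq2 libraries on a NextSeq500, not which library used which. The submitters' processing notes name CASAVA 1.8, kallisto and DESeq2 without saying what each did. Genome build and annotation were not given in the sources used here. Values are normalised counts in the table the authors deposited, treated as a signal (values of 0 or more). They are not whole (in each library 45.9 to 67.7% of low values fell on multiples of the smallest step, tolerance 0.01), so reads were not recovered and no count model was run. The authors' deposited batch-corrected table, read as a score that can be negative, served as an alternative only.

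Groups came from the labels, and replicate numbers follow the order of the records and pair nothing. Of 23995 genes, the 14668 that reached 10 in 3 or more libraries were tested as log2(value + 1) with limma 3.58.1 under R 4.3.3 (lmFit, then contrasts.fit, then eBayes with a trend; two-sided p, Benjamini-Hochberg over all tested genes), with all 27 libraries in 1 fit of 9 group means, group and number series together. Over 27 replicate pairs the median absolute log2 difference was 0.125 to 0.394 and at most 18 of 7857 values were identical, so none were merged. Tested on simulated data (14668 genes, dispersion 0.0149, 50 changed per size), the fit recovered 22, 50, 50 and 50 genes changed 1.5, 2, 4 and 8-fold for wild-type PolyI:C, with 9 false calls. For its difference between genotypes the fit recovered 7, 43, 50 and 50, with 11 false calls. These counts hold for that dispersion. Recovery at the spread of members such as Socs1 (SE 0.65 with PolyI:C in wild type) and Dusp10 (SE 0.76) was not tested.

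The members and lists were chosen with earlier results of these data known. A gene of the list of further phosphatases and kinases is not reported here and is left out of its counts. Every member is given at least 1 value. Library values are given for the 4 highest and 4 lowest called changes of each response, difference and stimulus pair, all calls between unstimulated genotypes and a panel of 15 genes, and for the other pathway lists up to 3 highest and 3 lowest. Comparisons of the wild-type number series, and of PolyI:C with CpG between genotypes, were added after the data were seen. Promoters are RefSeq windows on GRCm38.p6. Python 3.11.15 with pandas 2.3.3 and matplotlib 3.10.9 made the figures. As alternatives, other pseudocounts, filters, scalings, variance models and library weights were tried, as were a fit without the series term, a fit of the compared libraries only, the batch-corrected table, and leaving out each library in turn.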

Additional observations from a re-analysis of the deposited data

Results flagged for a closer look

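In the 6 unstimulated wild-type libraries, the largest value stood far from the others for 2 members: Socs2 at 173 and Socs3 at 709, both in replicate 4. The gap was wider than Dixon's limit for 6 values, which chance alone passes in about 1 group in 20. All 38 members were screened, so chance alone would bring some past it. The 6 values also join 2 number series that differed, whereas the limit assumes 1 sample. Leaving out replicate 4 did not end the Socs3 call between unstimulated genotypes.

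Stimulus effects that differed between the genotype labels (adjusted p under 0.05, limma, BH) are given as log2 differences, labelled CB2-/- minus wild type. For LPS/IFN-γ they were Nfkbia -0.55, Nfkbib -1.37, Nfkbiz -1.10, Tnfaip3 -1.57, Tnip3 -1.53, Irak3 -0.77, Socs1 -4.16, Socs3 -2.42, Zc3h12a -1.84, Dusp4 -3.50, Dusp5 -2.95, Dusp6 -1.08 and Traf1 -3.69. For PolyI:C they were Nfkb1 -0.78, Nfkb2 -1.84, Rel -1.11, Nfkbia -1.98, Nfkbib -2.32, Nfkbiz -2.89, Tnfaip3 -2.91, Tnip1 -2.10, Tnip3 -3.04, N4bp1 -0.67, Irak3 -2.08, Socs3 -3.67, Zc3h12a -2.30, Zc3h12c -1.28, Zfp36 -0.74, Dusp1 -1.55, Dusp2 -4.06, Dusp4 -2.12, Dusp5 -2.67, Dusp16 -2.40, Birc3 -0.78, Cflar -1.64, Traf1 -5.47, Traf2 -1.84, Ikbke -1.21 and Map3k8 -0.97, of which Zfp36 was lost on dropping any of 9 of its 12 libraries, at -0.77 to -0.52 and Birc3 on dropping any of 4 of its 12 libraries, at -0.74 to -0.65. For CpG they were Nfkb1 0.97, Nfkb2 0.66, Rela 0.60, Nfkbie 2.21, Nfkbiz -1.0, Tnip3 -2.91, N4bp1 0.62, Socs3 -1.71, Dusp5 -1.15 and Traf1 -1.59, of which Dusp5 was lost on dropping any of 11 of its 12 libraries, at -1.20 to -0.90. Without wild-type unstimulated replicate 1 the Traf1 differences were -3.10, -4.88 and -1.0. In the same libraries the unstimulated wild-type series differed, by 3.79 for Dusp4, 1.66 for Traf1 and 1.39 for Dusp5, and the part of that gap in these differences was not tested.

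The contrast of PolyI:C with CpG, which holds no unstimulated library and was added after the data were seen, differed between the labels by Nfkb1 -1.75, Nfkb2 -2.49, Rel -1.22, Rela -0.77, Relb -0.85, Nfkbia -1.63, Nfkbib -2.42, Nfkbie -2.71, Nfkbiz -1.88, Tnfaip3 -3.28, Tnip1 -1.69, N4bp1 -1.30, Irak3 -1.87, Tnfaip2 -0.78, Socs1 -3.14, Socs3 -1.96, Zc3h12a -1.68, Zc3h12c -1.44, Zfp36 -0.87, Dusp1 -1.10, Dusp2 -3.76, Dusp5 -1.52, Dusp16 -1.84, Birc3 -1.03, Cflar -1.87, Traf1 -3.88, Traf2 -1.79, Ikbke -1.09 and Map3k8 -1.07. Tnfaip2 was lost on dropping any of 5 of its 12 libraries, at -0.74 to -0.66, and Zfp36 on dropping any of 3 of its 12 libraries, at -0.82 to -0.71. Socs1 was -2.07 and -4.0 without wild-type CpG replicates 1 and 3. Stimulated genotype and number series cannot be told apart in this contrast, and its spread was estimated from all 27 libraries.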

How the results depend on the processing

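The summed values do not give the number of reads behind a library, so the precision at low values, as for Dusp8, Dusp10, Dusp14 and Socs1, is unknown. No paired analysis was possible because replicate numbers follow the order of the records and pair nothing. Under quantile scaling the all-gene median shifted by -0.11 for LPS/IFN-γ and 0.14 for CpG in wild type, by -0.12 for the genotype difference with CpG, and by -0.28 and -0.15 for LPS/IFN-γ and PolyI:C set against CpG in wild type. Median-of-ratios rescaling had the same factor, 1.01, for every library, so it could shift none and checks nothing. Of 4982 member values under alternatives other than leaving out a library, 4753 kept direction and side of the threshold, 177 fell below it and 37 passed it. The values under median-of-ratios rescaling are among those 4982. Leaving out single libraries gave 3246 values, of which 3034 kept both, 197 fell below the threshold and 6 passed it. Counts of members called moved by over 1.5 times as follows, and the cause was not tested. For no alternative was the share of all genes called counted, so these counts only describe the members. With library weights 23 were called for the difference in LPS/IFN-γ response (13 as reported), 16 for CpG (10) and 16 for LPS/IFN-γ against PolyI:C in wild type (10). The batch-corrected table gave 20 for the difference in LPS/IFN-γ response. With no number series term, 4 were called for the difference in CpG response and 9 for LPS/IFN-γ against CpG under the CB2-/- label (14 as reported, 9 to 10 without each library in turn). With only the compared libraries in the fit, which leaves fewer libraries to estimate the spread, 15 were called for PolyI:C against CpG in wild type (27), 4 between unstimulated genotypes (15; 8 to 18 without each library in turn) and 4 between the wild-type series (17). Without the series term the differences of Dusp4 (LPS/IFN-γ and PolyI:C), Dusp6, Nfkbiz and Tnfaip3 (LPS/IFN-γ) and the CpG differences of Dusp5, N4bp1, Nfkb1, Nfkb2, Nfkbiz, Rela and Traf1 missed the threshold.

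Directions turned for 3 called values, all under quantile scaling: Rela with PolyI:C in wild type (-0.13), Socs3 for LPS/IFN-γ against CpG in wild type (-0.01) and Nfkbia for PolyI:C against CpG in wild type (-0.21). Among values that had not passed, Tnip2 with LPS/IFN-γ in wild type was 0.06 in the batch-corrected table and -0.16 to 0.06 without single libraries. With no series term Dusp6 with PolyI:C in wild type was -0.07 and Dusp4 with CpG -0.89. Socs1 with CpG in wild type was -0.10 without CpG replicate 3 and up to 1.82 without another library, and Dusp4 with LPS/IFN-γ under the CB2-/- label 0.08 without replicate 2 of that group. Socs2 with PolyI:C under that label was -0.03 with library weights, -0.01 in the batch-corrected table and -0.18 to 0.25 without single libraries. For the difference in LPS/IFN-γ response, Nfkb1 was -0.27 with no series term, -0.13 in the batch-corrected table and -0.05 to 0.18 without single libraries. Under quantile scaling Nfkb2 was 0.08 there, Rel 0.06, Rela 0.16 and Relb 0.05, Rel was -0.25 to 0.01 without single libraries, and Rela in the difference of PolyI:C responses was 0.15.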
